A study of Arabidopsis thaliana with 8 samples.

Results

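The *XTH* genes encode xyloglucan endotransglucosylase/hydrolases, cell wall enzymes of *Arabidopsis thaliana*. The 33 members, *XTH1* to *XTH33*, were found by their locus identifiers in a table of read counts for 33518 loci, and 29 of them carried enough reads to be tested among 20415 loci in all. The counts came from RNA-Seq of etiolated seedlings, with 2 libraries in each of 4 groups. Wild type (Col-0) and *iaa3* seedlings were both grown in the dark for 5 days on 2 µM propiconazole (PPZ), which blocks synthesis of brassinosteroid (BR), so that seedlings of every group, controls included, were grown BR-deficient. For the last 4 hr they received either mock solution or brassinolide (BL), an active BR, at 100 nM. The mutant is *iaa3/shy2-2*, a gain-of-function allele in which the auxin repressor IAA3 is stabilized and auxin signaling is impaired. The comparisons address how far the response of the family to BR depends on auxin signaling.

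Xyloglucan is the main hemicellulose of growing walls in *Arabidopsis*, where it coats and tethers cellulose microfibrils. XTH enzymes cut a xyloglucan chain and either join the new end to another chain (endotransglucosylation) or to water (hydrolysis), and both reactions are linked to wall loosening and wall reinforcement in elongating cells. Members are grouped by sequence into group 1 (here *XTH1* to *XTH11*), group 2 (*XTH12* to *XTH26*), group 3A (*XTH31* and *XTH32*, the group of predominant hydrolases) and group 3B (*XTH27* to *XTH30* and *XTH33*). *XTH22*, better known as *TCH4*, was isolated as a touch-induced gene and has long been used as a BR-induced gene.

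Total counts were 18107519 to 23183988 per library. Levels are given as CPM, the reads of a locus per 1000000 counts of a library after scaling with TMM factors, and per kilobase (kb) of exon where members are compared with each other. The labels do not say that the 2 libraries of a group came from separate cultures, so the p-values measure only the spread between these libraries, which may be technical. *PORA*, a gene of dark-grown seedlings, was at 426 to 1170 CPM, whereas the light-induced *LHCB1.1* was at 4.48 to 19.9 CPM and *RBCS1A* at 2052 to 2515 CPM. Transcripts of *IAA3* itself were at 45 and 45.2 CPM in mock and 120 and 129 CPM with BL in wild type, and at 11.1 to 13.7 CPM in the 4 *iaa3* libraries, which separates the genotypes but does not show the mutation. In whole seedlings, fewer cells of a type and less RNA per cell cannot be told apart. Root markers (9 genes, 0 of them at or below 3 counts) summed to 2753 to 3152 CPM (mock) and 1995 to 2329 (BL) in wild type, and to 1362 to 1619 (mock) and 1218 to 1381 (BL) in *iaa3*. Most of each sum was *PYK10*, at 2618 and 2999 CPM in wild type mock, which was not called with BL in wild type. There 5 of the 9 root markers, *CASP1* to *CASP5*, were called lower with BL (5.87% of all loci). *TIP2-3* was called higher (8.45% of all loci), from 23.2 and 27.7 to 177 and 158 CPM. Summed xylem markers (6 genes) were at 74.7 to 93.2, 73.5 to 79.1, 24.6 to 27.3 and 19.0 to 20.8 CPM in the same order, with 1 marker, *VND7*, at or below 3 counts in *iaa3* mock. Root hair markers (4 genes) summed to 16.7 to 16.8, 17.9 to 19.2, 18 to 26 and 21.2 to 26.1 CPM in that order. With BL 0 of these 4 were called in either genotype. The part of all these markers in the differences between groups was not tested.

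In wild type seedlings BL raised 11 members and lowered 7. The members that rose were *XTH4*, *XTH5*, *XTH8*, *XTH17*, *XTH18*, *XTH19*, *XTH22*, *XTH23*, *XTH30*, *XTH31* and *XTH33*, by 1.63-fold (*XTH5*) to 7.78-fold (*XTH17*). Those that fell were *XTH6*, *XTH7*, *XTH9*, *XTH15*, *XTH20*, *XTH24* and *XTH32*, by 1.99-fold (*XTH6*) to 6.38-fold (*XTH32*). A difference was called at 1.5-fold or more with an unadjusted p-value under 0.01 in edgeR's quasi-likelihood test. The 18 calls were 62.1% of the tested members, against 14.3% of all tested loci, of which 8.45% were called higher and 5.87% lower. The median absolute log2 fold change was 0.99 over the members and 0.23 over all loci, and the median signed change was 0.10 over the members. The plot of levels by library shows these changes beside the gap between the 2 libraries of a group, whose median over 28 members with at least 10 counts in every library was 0.08 (wild type BL) to 0.18 (*iaa3* BL) on the log2 scale.

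In *iaa3* seedlings BL raised 3 members, *XTH19*, *XTH22* and *XTH23*, and lowered 5, *XTH7*, *XTH11*, *XTH15*, *XTH17* and *XTH32*. These 8 calls were 27.6% of the tested members, against 8.15% of all loci (4.69% higher and 3.46% lower), and the median absolute log2 fold change was 0.49 over the members and 0.18 over all loci. Without the 1.5-fold limit, 16 members had an edgeR p-value under 0.05 after Benjamini-Hochberg adjustment in *iaa3*, and 19 in wild type. A member not called in *iaa3* may thus have changed by less than 1.5-fold. The share of all loci by that measure was not counted. Of the 11 members that rose in wild type, 3 were called higher in *iaa3* (27.3%), 1 was called lower and 7 were not called. Of all 1726 loci called higher in wild type, 19.1% were called higher in *iaa3*, 0.811% lower and 80.1% not called, so that nothing particular to the family is read from this split. Of the 7 that fell in wild type, 3 were called lower in *iaa3* (42.9%), 4 were not called and 0 were called higher, against 29.3% lower, 67.1% not called and 3.67% higher among the 1199 loci called lower in wild type. The difference between the BL responses of the genotypes, tested as an interaction in the same edgeR fit with a limit of 0.05 on the p-value after Benjamini-Hochberg adjustment, was called for 19 members (65.5%), against 17.6% of all loci. The log2 response in *iaa3* minus that in wild type was negative for 13 members (9.95% of all loci) and positive for 6 (7.63% of all loci). The count of calls in *iaa3* moved between 7 and 12 when single libraries were left out, with 12 (6 higher) without *iaa3* mock replicate 2 and 11 (5 higher) without *iaa3* BL replicate 1.

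**Figure D1:**
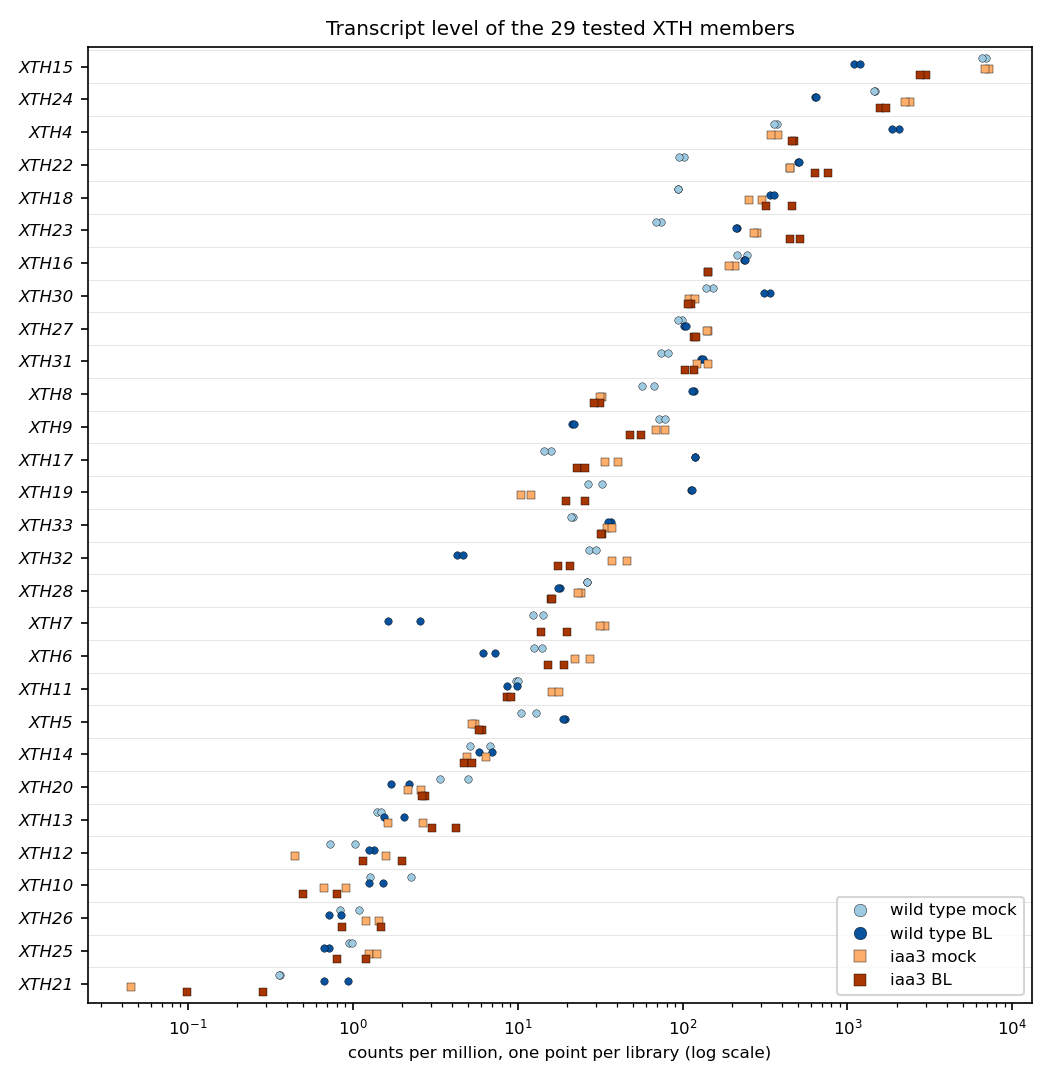
CPM (log scale) of the 29 tested members, ordered by their summed level, with 1 point per library and 1 row per member. *XTH15* and *XTH24* lead the scale, *XTH17* and *XTH4* stand out in wild type BL, and the *iaa3* mock library with 0 reads of *XTH21* cannot be drawn on this axis.

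**Figure D2:**
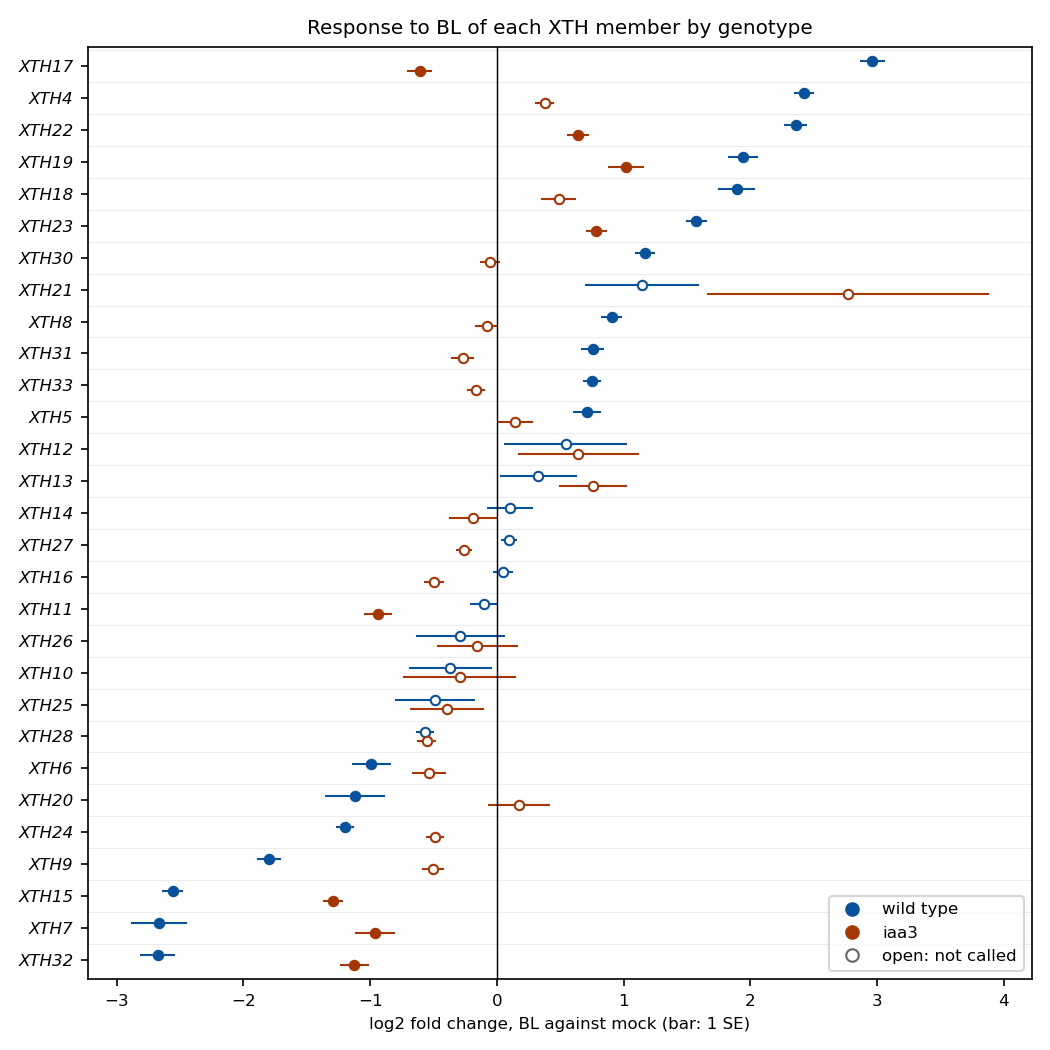
Log2 fold change of BL against mock in wild type (blue) and *iaa3* (brown) for each tested member, with 1 SE as the bar, filled where the difference was called. In wild type the values run from −2.67 (*XTH32*) to 2.96 (*XTH17*), and *XTH17* lies on opposite sides of 0 in the 2 genotypes.

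Family transcripts as a whole were fewer after BL in both genotypes. They took 1.05 and 1.02% of all counts in mock and 0.605 and 0.606% with BL in wild type, against 1.16 and 1.13% and then 0.691 and 0.703% in *iaa3*. Per kb of exon, *XTH15* alone made up 71.8 and 70.4% of the pool of wild type and 62.6 and 62.1% of the *iaa3* pool under mock treatment. With BL its share was 20.5 and 22.5% in wild type and 44.1 and 39.9% in *iaa3*. In wild type BL *XTH4* was the leading member, at 28.8 and 26.3% of the pool, whereas in *iaa3* BL it made up 5.22 and 5%. The number of members needed to reach 90% of the pool went from 4 in mock to 9 with BL in wild type, and from 5 to 6 in *iaa3*. With *XTH15* and *XTH24* set aside, a choice made after their levels were seen, the remaining members summed to 1059 and 1057 CPM per kb in mock and to 2970 and 2868 with BL in wild type. The same sums in *iaa3* were 1604 and 1623 CPM per kb, and 1823 and 2039 with BL. These are descriptions, since 2 libraries against 2 leave too few arrangements for an exact test of a sum to pass 0.05.

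**Figure D3:**
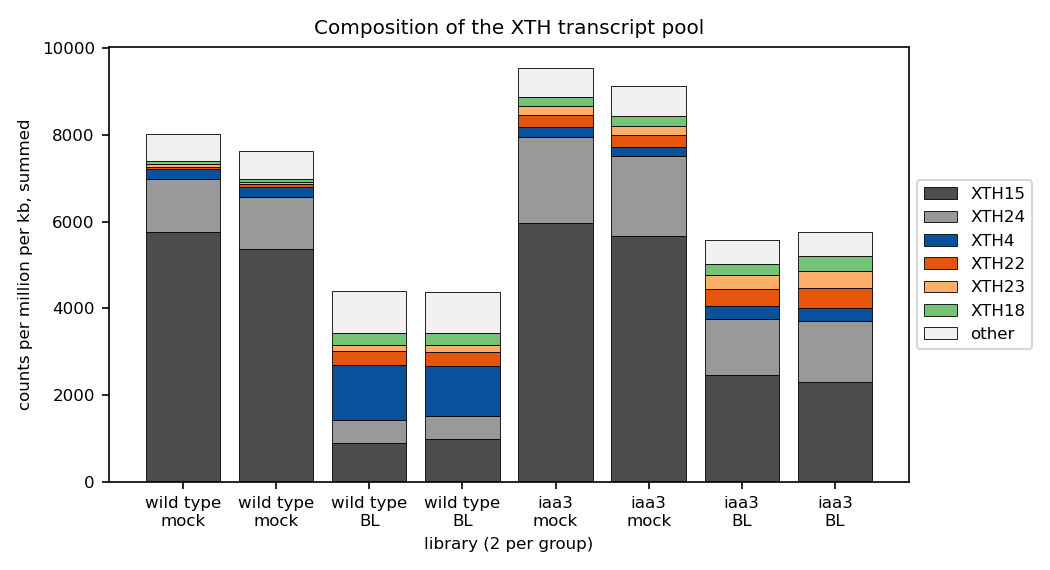
Summed level of the family in each library, in CPM per kb of exon, divided by member. The bars stand at 8035 and 7636 (mock) and 4396 and 4388 (BL) in wild type, and at 9556 and 9138 (mock) and 5587 and 5754 (BL) in *iaa3*, and *XTH4* forms the widest band in wild type BL.

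*XTH4* (AT2G06850), the endotransglucosylase also called EXGT-A1, had the largest rise with BL in group 1. It was at 372 and 358 CPM (mock) and 2046 and 1867 (BL) in wild type, and at 377 and 343 (mock) and 471 and 464 (BL) in *iaa3*. The wild type BL libraries stood apart from the other 6, and the genotypes overlapped in mock. The rise was 5.36-fold in wild type (log2 2.42 ± 0.08, SE; edgeR adjusted p = 8.03e-09) and the difference in *iaa3* was 1.30-fold (log2 0.38 ± 0.08), which missed the 1.5-fold limit. The responses differed by −2.05 ± 0.11 on the log2 scale (adjusted p = 1.28e-06). Its relative *XTH5* (AT5G13870, EXGT-A4) had mock levels of 13.0 and 10.5 CPM in wild type and 5.54 and 5.27 in *iaa3*, and BL levels of 19.4 and 18.8 and of 6.08 and 5.88. Every *iaa3* library lay below every wild type library, by 2.16-fold in mock and 3.20-fold with BL. *XTH5* rose by 0.71 ± 0.11 in wild type and changed by 0.14 ± 0.14 in *iaa3* (log2), a difference that did not pass (−0.56 ± 0.18, adjusted p = 0.0539). Without wild type mock replicate 2 the rise of *XTH5* was 0.57 and fell short of 1.5-fold. *XTH8* (AT1G11545) went from 66.8 and 56.7 CPM in mock to 117 and 114 with BL in wild type, and from 32.6 and 31.4 to 31.6 and 29 in *iaa3*. It rose 1.87-fold in wild type, changed by −0.08 ± 0.09 in *iaa3*, and was 1.93-fold lower in *iaa3* than in wild type in mock and 3.82-fold lower with BL (interaction −0.98 ± 0.12, adjusted p = 0.000328).

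In group 1, 3 members fell with BL in wild type. *XTH7* (AT4G37800) was at 12.4 and 14.3 CPM (mock) and 2.55 and 1.65 (BL) in wild type, and at 34.0 and 31.5 (mock) and 20.0 and 13.9 (BL) in *iaa3*. It fell 6.34-fold in wild type and 1.95-fold in *iaa3*, and its levels in *iaa3* with BL and in wild type mock overlapped. With BL it was 7.98-fold higher in *iaa3* than in wild type (log2 3.0 ± 0.22, adjusted p = 1.39e-06), the largest genotype difference with BL among the members. *XTH6* (AT5G65730), with 71.8% identity to *XTH7* in coding sequence, had mock levels of 12.6 and 14.1 CPM in wild type and 27.5 and 22.2 in *iaa3*, and BL levels of 6.14 and 7.33 and of 19.1 and 15.4. All 4 *iaa3* libraries lay above all 4 wild type libraries. Its fall in wild type was −0.99 ± 0.16 and its change in *iaa3* −0.53 ± 0.14 on the log2 scale, and the difference between them did not pass (adjusted p = 0.159). *XTH9* (AT4G03210), known from growing internodes, went from 72.0 and 78.8 CPM in mock to 21.4 and 21.9 with BL in wild type, and from 78.3 and 69.4 to 55.9 and 48.3 in *iaa3*. The genotypes overlapped in mock (−0.03 ± 0.09). With BL *XTH9* fell 3.48-fold in wild type (log2 −1.80 ± 0.09) and was 1.42-fold lower in *iaa3* (−0.51 ± 0.09, not called). It stood 2.40-fold higher in *iaa3* BL than in wild type BL.

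The other tested members of group 1 were called by genotype. *XTH11* (AT3G48580) was at 9.84 and 10.1 CPM (mock) and 8.60 and 9.96 (BL) in wild type, and at 16.2 and 17.8 (mock) and 8.61 and 9.17 (BL) in *iaa3*. Its *iaa3* mock libraries stood above the other 6, and it fell 1.91-fold with BL in *iaa3* (log2 −0.94 ± 0.11) and changed by −0.10 ± 0.11 in wild type. *XTH10* (AT2G14620) had mock levels of 1.27 and 2.27 CPM in wild type and 0.671 and 0.908 in *iaa3*, and BL levels of 1.52 and 1.25 and of 0.804 and 0.498. It was called 2.26-fold lower in *iaa3* in mock (adjusted p = 0.0245). The call was lost under DESeq2 (adjusted p = 0.0996), and without wild type mock replicate 2, either wild type BL library or either *iaa3* mock library, with edgeR adjusted p-values of 0.0429 to 0.237. *XTH1*, *XTH2* and *XTH3* were not tested, with 0 counts of *XTH1* in every library, 2 to 5 counts of *XTH2* and 0 or 1 of *XTH3*. The 3 counts that a count of 0 allows correspond to 0.120 to 0.172 CPM.

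Group 2 held the largest response and the closest relatives in coding sequence, *XTH12* and *XTH13* (89.4% identity). *XTH17* (AT1G65310), *XTH18* (AT4G30280), *XTH19* (AT4G30290) and *XTH20* (AT5G48070) form 1 branch, known from roots, with coding sequence identities of 79.6% (*XTH17* with *XTH20*) to 87.6% (*XTH18* with *XTH19*). In their exons 0.167% of 50-base stretches of *XTH17*, 1.57% of *XTH18* and 1.63% of *XTH19* also occur elsewhere. These are exact matches only, and how reads that fit several loci were handled is not given, so shared reads were not measured. The 120 bases before the annotated start of *XTH17*, *XTH18* and *XTH19* are shown because *XTH17* and *XTH18* share sequence there, and *XTH19* is set beside them as the closest relative of *XTH18*. They are taken from RefSeq assembly TAIR10.1, from chromosome 1, plus strand (*XTH17*), and chromosome 4, minus strand (*XTH18* and *XTH19*), with the CATGTG form of the HUD motif (CACATG) in capitals.
XTH17: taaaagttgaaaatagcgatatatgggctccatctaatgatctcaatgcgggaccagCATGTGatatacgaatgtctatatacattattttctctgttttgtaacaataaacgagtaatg
XTH18: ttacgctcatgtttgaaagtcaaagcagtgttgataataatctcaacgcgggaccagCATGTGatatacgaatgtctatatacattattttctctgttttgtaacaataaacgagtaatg
XTH19: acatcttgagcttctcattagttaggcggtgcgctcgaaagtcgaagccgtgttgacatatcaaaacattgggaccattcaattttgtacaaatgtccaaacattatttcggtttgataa
The last 73 bases were identical in *XTH17* and *XTH18*, the motif among them at 63 bases before the start. Over the window the identity was 79.2% for this pair in a global alignment, 44.4% for *XTH17* with *XTH19* and 49.7% for *XTH18* with *XTH19*.

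*XTH17* rose with BL in wild type and fell in *iaa3*. It went from 16.0 and 14.5 CPM in mock to 119 and 119 with BL in wild type, and from 34.0 and 40.4 to 23 and 25.8 in *iaa3*. No groups overlapped. The rise in wild type was 7.78-fold (log2 2.96 ± 0.10, adjusted p = 8.14e-09), the largest of the family. The fall in *iaa3* was 1.52-fold (−0.61 ± 0.10, adjusted p = 0.00166), just past the limit, and shrank to −0.48 without *iaa3* mock replicate 2 and to −0.53 without *iaa3* BL replicate 1, both under 1.5-fold. The responses differed by −3.57 ± 0.14 on the log2 scale (adjusted p = 5.95e-07). *XTH18*, with the same 73 bases before its start, was at 93.7 and 94.4 CPM (mock) and 341 and 358 (BL) in wild type, and at 254 and 303 (mock) and 320 and 460 (BL) in *iaa3*. The wild type mock libraries lay below the rest, and the *iaa3* BL libraries spanned the wild type BL ones. *XTH18* rose 3.71-fold in wild type (log2 1.89 ± 0.15) and changed 1.40-fold in *iaa3* (0.49 ± 0.14, not called), and was 2.96-fold higher in *iaa3* than in wild type in mock but only 1.12-fold with BL, not called. With BL *XTH17* was 4.86-fold lower in *iaa3* than in wild type. The difference between the 2 members was not tested.

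*XTH19*, an auxin-responsive member, was low in *iaa3* in both treatments. It had mock levels of 32.3 and 26.8 CPM in wild type and 10.5 and 12.1 in *iaa3*, and BL levels of 112 and 114 and of 19.6 and 25.8. It rose 3.84-fold in wild type (log2 1.94 ± 0.12) and 2.02-fold in *iaa3* (1.02 ± 0.14), and these responses differed by −0.92 ± 0.18 (adjusted p = 0.00608). Against wild type it was 2.62-fold lower in *iaa3* mock and 4.97-fold lower in *iaa3* BL, where its highest library stayed below the lowest of wild type mock. *XTH20* went from 3.40 and 5.02 CPM in mock to 1.70 and 2.19 with BL in wild type, and from 2.59 and 2.18 to 2.75 and 2.64 in *iaa3*. It fell 2.17-fold in wild type (log2 −1.12 ± 0.23) and was 1.77-fold lower in *iaa3* in mock, and its response differed between genotypes (1.29 ± 0.34, adjusted p = 0.0251). The fall in wild type was no longer called without wild type BL replicate 1 (−0.95, edgeR adjusted p = 0.0496). The genotype call in mock was lost without wild type mock replicate 2 (−0.51, adjusted p = 0.152) or either *iaa3* mock library, and under DESeq2 (adjusted p = 0.0622). The interaction was lost under DESeq2 (adjusted p = 0.0666) and without wild type mock replicate 2, wild type BL replicate 1, *iaa3* mock replicate 2 or either *iaa3* BL library, with adjusted p-values of 0.0556 to 0.10. *XTH21* (AT2G18800), a gene of primary root growth, had 8 and 9 counts in mock and 15 and 21 with BL in wild type, but 0 and 1 and then 5 and 2 in *iaa3*. Wild type mock exceeded *iaa3* mock 16-fold on the summed counts of 17 and 1, with a 95% exact counting interval of 2.51 to 670, which covers counting error only and not the spread between libraries. With BL *XTH21* was 4.20-fold lower in *iaa3* (log2 −2.07 ± 0.55, adjusted p = 0.00944), a call lost without wild type BL replicate 2 (−1.82, adjusted p = 0.0715) or *iaa3* BL replicate 2 (−1.47, adjusted p = 0.102), and the mock call was lost without *iaa3* mock replicate 1 (adjusted p = 0.0787). Under DESeq2 neither call of *XTH21* held (adjusted p = 0.0621 in mock and 0.0853 with BL). Of the root markers given above, 7 of 9 were called lower in *iaa3* in mock (9.48% of all loci), with *SMB* and *BRN1* not called, and 4 of 9 with BL (13.8% of all loci). Of the 4 root hair markers, 0 were called lower in *iaa3* in either treatment. There 1 was called higher in mock (8.47% of all loci) and 1 with BL (11.2% of all loci).

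*XTH22* (*TCH4*, AT5G57560) and *XTH23* (*XTR6*, AT4G25810), with 79.2% coding identity, rose with BL in both genotypes. *XTH22* was at 102 and 95.1 CPM (mock) and 501 and 511 (BL) in wild type, and at 447 and 449 (mock) and 638 and 759 (BL) in *iaa3*. The *iaa3* mock libraries lay far above wild type mock and somewhat below wild type BL. The rise was 5.13-fold in wild type (log2 2.36 ± 0.09, adjusted p = 1.68e-08) and 1.56-fold in *iaa3* (0.64 ± 0.08, adjusted p = 0.000528), and the latter shrank to 0.51, under 1.5-fold, without *iaa3* BL replicate 2. *XTH22* was 4.54-fold higher in *iaa3* than in wild type in mock, the largest rise of that comparison, and 1.38-fold higher with BL, not called. *XTH23* had mock levels of 73.8 and 68.8 CPM in wild type and 284 and 273 in *iaa3*, and BL levels of 214 and 211 and of 446 and 514, so that the groups formed 4 separate levels. It rose 2.98-fold in wild type and 1.72-fold in *iaa3* with BL (interaction −0.79 ± 0.11, adjusted p = 0.000934), and was 3.91-fold higher in *iaa3* in mock and 2.26-fold higher with BL. In these 2 members, as in *XTH18*, the smaller response in *iaa3* started from a raised mock level, and the comparisons of BL in wild type and of genotype in mock share the wild type mock libraries. The 120 bases before the start of these relatives are given for contrast with *XTH17* and *XTH18*, from chromosome 5, minus strand (*XTH22*), and chromosome 4, plus strand (*XTH23*), with a CGTGTG element in capitals.
XTH22: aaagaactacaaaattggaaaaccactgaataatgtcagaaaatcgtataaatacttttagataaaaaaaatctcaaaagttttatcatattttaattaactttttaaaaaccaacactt
XTH23: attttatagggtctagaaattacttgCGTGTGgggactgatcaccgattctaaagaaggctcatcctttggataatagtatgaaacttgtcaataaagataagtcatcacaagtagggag
The same base stood at the same distance from the start at 28 of 120 positions in this pair, against 92 of 120 for *XTH17* with *XTH18*. Among the printed windows every pair other than *XTH17* with *XTH18* had 26 to 39 such positions, this pair included.

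*XTH15* (*XTR7*, AT4G14130), known for its induction in shade, and *XTH24* (*MERI5B*, AT4G30270) were the most abundant members per kb in both mock groups, and in wild type both fell with BL. *XTH15* went from 6958 and 6493 CPM in mock to 1090 and 1193 with BL in wild type, and from 7217 and 6850 to 2972 and 2768 in *iaa3*. The genotypes overlapped in mock and stood apart with BL. The fall was 5.89-fold in wild type (log2 −2.56 ± 0.08, adjusted p = 6.82e-09) and 2.45-fold in *iaa3* (−1.29 ± 0.08, adjusted p = 1.77e-06), a difference of 1.26 ± 0.11 (adjusted p = 2.80e-05). Of its 50-base stretches, 28.8% are shared with AT4G14120, which overlaps it on the opposite strand and had 1 to 17 counts per library. Whether the counting used strand is not given in the sources used here. *XTH24* was at 1465 and 1452 CPM (mock) and 632 and 641 (BL) in wild type, and at 2386 and 2224 (mock) and 1574 and 1719 (BL) in *iaa3*. It fell 2.29-fold in wild type (log2 −1.20 ± 0.07) and was 1.40-fold lower with BL in *iaa3* (−0.48 ± 0.07, not called), and all 4 *iaa3* libraries lay above all 4 wild type libraries. With scaling by library size alone its difference in mock was 0.54 in place of 0.66, short of 1.5-fold. *XTH16* (AT3G23730), with 80.5% coding identity to *XTH15*, had mock levels of 215 and 246 CPM in wild type and 209 and 192 in *iaa3*, and BL levels of 235 and 240 and of 143 and 142. In wild type it changed by 0.05 ± 0.08 with BL where *XTH15* changed by −2.56. With BL *XTH16* was 1.67-fold lower in *iaa3* (log2 −0.74 ± 0.08), the opposite side from *XTH15*, which was 2.51-fold higher.

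Of the rest of group 2, *XTH13* (AT5G57540) went from 1.41 and 1.48 CPM in mock to 2.06 and 1.56 with BL in wild type, and from 1.65 and 2.68 to 3.04 and 4.23 in *iaa3*. It was called 2.02-fold higher in *iaa3* with BL (adjusted p = 0.0105), and the call was lost without wild type BL replicate 2 (adjusted p = 0.0954) or *iaa3* BL replicate 2 (adjusted p = 0.102). *XTH12*, *XTH14*, *XTH25* and *XTH26* were never called, with 10 to 170 counts per library, 0.447 to 6.97 CPM and log2 fold changes of −0.49 to 0.64. At 10 to 40 counts a change of 1.5-fold was not detectable in *XTH12*, whose SE was 0.46 to 0.50. Nor would it have passed in *XTH25* (14 to 31 counts, SE 0.282 to 0.325) or *XTH26* (15 to 32 counts, SE 0.32 to 0.35). Several members of group 2 are neighbors on a chromosome. *XTH24*, *XTH18* and *XTH19* are consecutive genes of chromosome 4, and in wild type *XTH24* fell with BL while the other two rose. *XTH13*, *XTH25* and *XTH22* are consecutive on chromosome 5, with *XTH12* close by. Only *XTH22* of these 4 was called for BL against mock (14.3% of all loci in wild type and 8.15% in *iaa3*). *XTH12*, *XTH13* and *XTH25* had 10 to 85 counts per library, against 2251 to 15226 for *XTH22*, so a change in them could be missed. *XTH23* and *XTH14* are neighbors on chromosome 4, and *XTH14* was not called in any comparison.

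**Figure D4:**
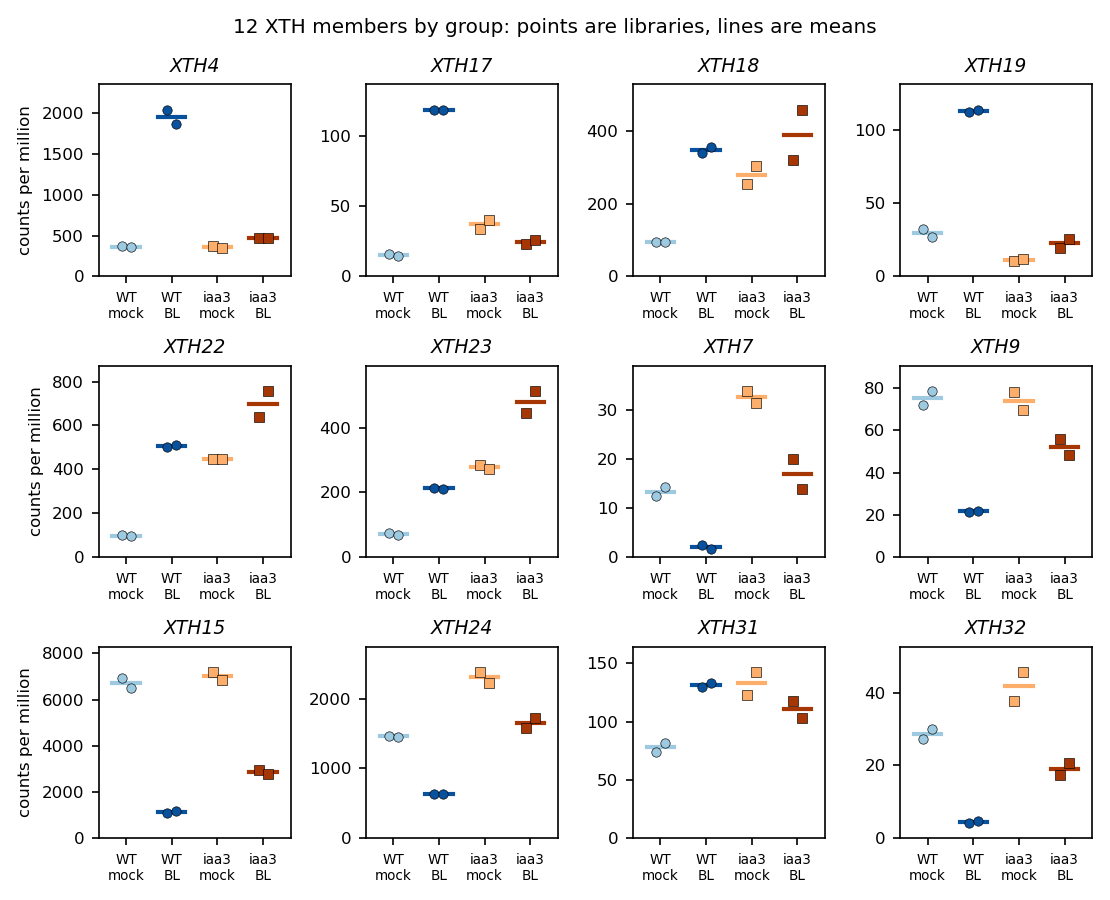
CPM of 12 members in the 4 groups, with points for the libraries and a line for the mean of 2, and axes from 0. *XTH4* and *XTH17* are high in wild type BL alone, *XTH22* and *XTH23* are raised in *iaa3* mock, and *XTH15* overlaps between the mock groups.

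In group 3A, *XTH31* (*XTR8*, AT3G44990), an enzyme with strong hydrolase activity, and *XTH32* (AT2G36870) went opposite ways in wild type. *XTH31* was at 74.3 and 81.8 CPM (mock) and 130 and 133 (BL) in wild type, and at 123 and 143 (mock) and 118 and 103 (BL) in *iaa3*. Wild type mock lay below the other 3 groups. It rose 1.69-fold with BL in wild type (log2 0.76 ± 0.09, adjusted p = 1.00e-04) and changed by −0.27 ± 0.09 in *iaa3*, not called, and in mock it was 1.71-fold higher in *iaa3*. *XTH32* had mock levels of 27.2 and 29.9 CPM in wild type and 37.6 and 45.8 in *iaa3*, and BL levels of 4.30 and 4.65 and of 17.5 and 20.7, and no groups overlapped. It fell 6.38-fold in wild type (log2 −2.67 ± 0.14) and 2.18-fold in *iaa3* (−1.12 ± 0.11), and with BL it was 4.27-fold higher in *iaa3* (adjusted p = 8.24e-07). Coding identity between these members was 64.6%.

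In group 3B, *XTH30* (*XTR4*, AT1G32170) and *XTH33* (AT1G10550), a member held at the plasma membrane, rose with BL in wild type and were not called in *iaa3*, with a called difference between the responses. *XTH30* went from 152 and 138 CPM in mock to 337 and 314 with BL in wild type, and from 110 and 119 to 113 and 108 in *iaa3*. It rose 2.25-fold in wild type and changed by −0.05 ± 0.08 in *iaa3* (interaction −1.22 ± 0.11, adjusted p = 3.40e-05). *XTH33* was at 21.8 and 21.1 CPM (mock) and 36.7 and 35.3 (BL) in wild type, and at 34.7 and 37.6 (mock) and 32.3 and 32.2 (BL) in *iaa3*. It rose 1.68-fold in wild type and changed by −0.17 ± 0.07 in *iaa3* (interaction −0.91 ± 0.10, adjusted p = 0.000159), and like *XTH31* it was higher in *iaa3* in mock, by 1.69-fold. *XTH27* (*EXGT-A3*, AT2G01850), known from tracheary elements, was called in the interaction alone (−0.35 ± 0.09, adjusted p = 0.0213). It had mock levels of 99.9 and 94.3 CPM in wild type and 143 and 141 in *iaa3*, and BL levels of 102 and 105 and of 118 and 120, and its interaction was lost without wild type BL replicate 2 or any single *iaa3* library, with adjusted p-values of 0.0527 to 0.0774. Its level was above wild type in *iaa3* mock by 1.47-fold, under the limit. All 6 xylem markers were called lower there, against 9.48% of all loci, with *VND7* at or below 3 counts. A relation between these markers and *XTH27* was not tested. *XTH28* (AT1G14720) was never called, at 16.0 to 26.4 CPM. It was singled out after its values were seen, since its lower value with BL was just under the limit in both genotypes, 1.48-fold in wild type and 1.47-fold in *iaa3*, with adjusted p-values of 0.000157 and 0.000671. *XTH29* had 0 to 7 counts and was not tested.

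Between genotypes, 16 members were called in mock, 10 higher in *iaa3* and 6 lower. They were 55.2% of the tested members, against 17.9% of all loci (8.47% higher and 9.48% lower). The higher ones were *XTH6*, *XTH7*, *XTH11*, *XTH17*, *XTH18*, *XTH22*, *XTH23*, *XTH24*, *XTH31* and *XTH33*, and the lower ones *XTH5*, *XTH8*, *XTH10*, *XTH19*, *XTH20* and *XTH21*. The 6 lower calls became 3 under DESeq2 and without *iaa3* mock replicate 1, in both cases by the loss of *XTH10*, *XTH20* and *XTH21*. With BL 16 members were called again, 8 higher (*XTH6*, *XTH7*, *XTH9*, *XTH13*, *XTH15*, *XTH23*, *XTH24* and *XTH32*) and 8 lower (*XTH4*, *XTH5*, *XTH8*, *XTH16*, *XTH17*, *XTH19*, *XTH21* and *XTH30*), against 25.0% of all loci (11.2% higher and 13.8% lower). The median absolute difference was 0.76 in mock and 1.1 with BL over the members, and 0.25 and 0.32 over all loci. *XTH17* was on opposite sides in the 2 treatments, 2.44-fold higher in *iaa3* in mock and 4.86-fold lower with BL. Under a 2-fold limit 9 members were called in mock and 15 with BL, against 1906 and 2992 of all 20415 loci. The number of calls was thus larger with BL over all loci too.

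**Figure D5:**
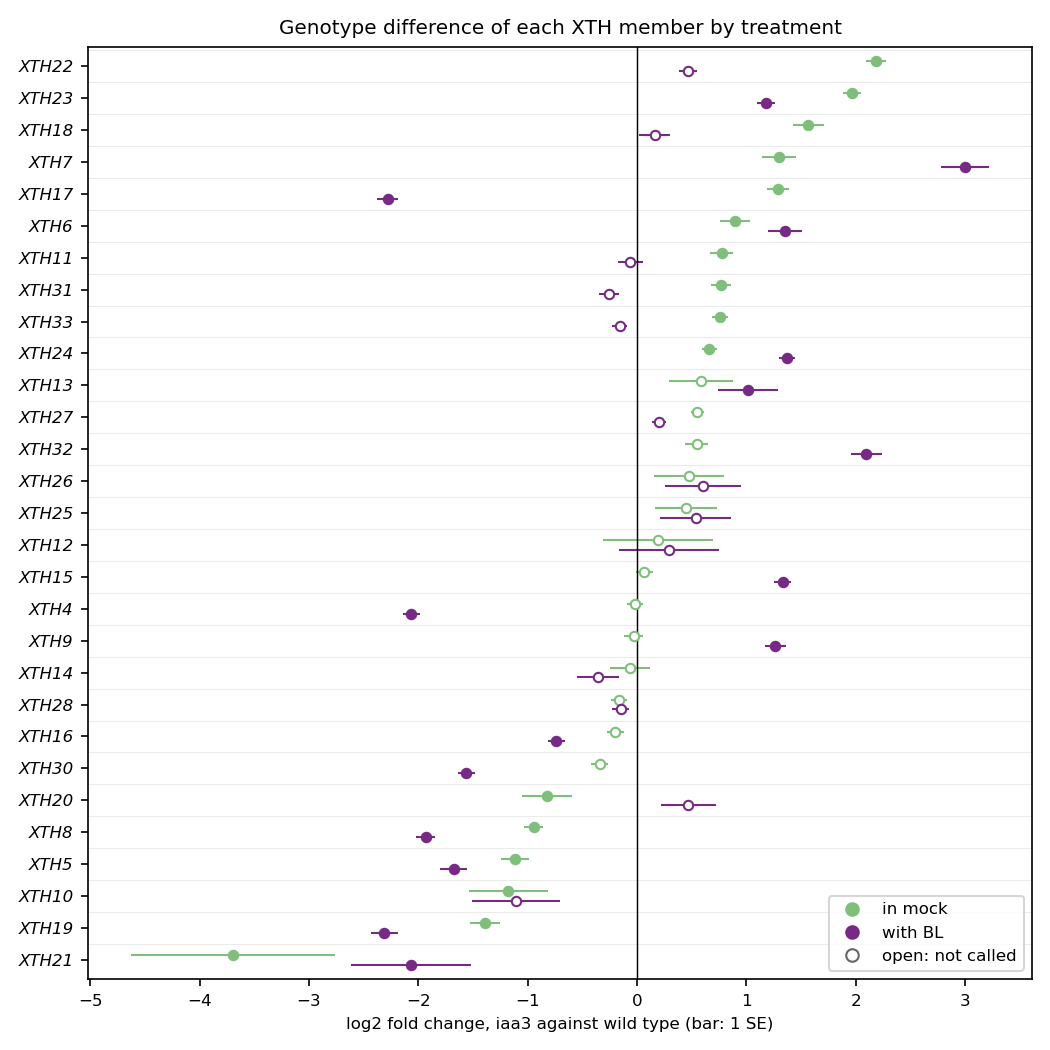
Log2 fold change of *iaa3* against wild type in mock (green) and with BL (purple) for each tested member, with 1 SE as the bar, filled where the difference was called. *XTH22* has the highest value in mock (2.18) and *XTH7* with BL (3.0), and *XTH21*, with 0 to 21 counts per library, has the longest bars.

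The sequence before the start of the genes was searched for elements bound by BR and auxin factors, on both strands of the 300 bases upstream of each annotated start in RefSeq TAIR10.1. The G-box CACGTG was in 0 of the 33 members and in 7.09% of 27443 promoters of protein-coding genes. The HUD motif CACATG, read as CATGTG on the other strand, was in 5 members (15.2%, against 13.1% of promoters), *XTH17*, *XTH18*, *XTH25*, *XTH26* and *XTH33*. The BR response element CGTGTG was in 4 members (12.1%, against 6.11%), *XTH2*, *XTH8*, *XTH23* and *XTH25*, and its CGTGCG form in 0 (1.78% of promoters). The auxin response element TGTCTC was in 3 members (9.09%, against 13.0%), *XTH3*, *XTH6* and *XTH24*, and TGTCGG in 1, *XTH20* (3.03%, against 4.91%). No 2 of these matches overlapped. A match is a description of these letters in this window, and no match says only that they are not there.

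Genes that build or trim xyloglucan were described beside the family, as a list of 21, all tested. In wild type BL raised 8 of them (38.1%, against 8.45% of all loci called higher) and lowered 0 (5.87% of all loci), with a list median of 0.38 (log2) against −0.01 over all loci. With library size alone 7 were higher and 1 lower, and without wild type BL replicate 1 the counts were 8 and 1. They were the glucan synthases *CSLC4* (2.09-fold), *CSLC5* (1.75-fold) and *CSLC12* (2.53-fold), the xylosyltransferases *XXT3* (2.15-fold) and *XXT5* (1.78-fold), the *O*-acetyltransferase *AXY4* (1.59-fold), the fucosidase *AXY8* (1.63-fold) and the galactosidase *BGAL10* (3.51-fold). In *iaa3* BL raised 1, *BGAL10* (1.80-fold), which is 4.76% of the list against 4.69% of all loci called higher. It lowered 0 (3.46% of all loci), and the list median was 0.08 (log2). In mock *CSLC12* (2.32-fold) and *XXT1* (1.51-fold) were higher in *iaa3*, and *CSLC8* (1.60-fold) and *BGAL10* (1.66-fold) lower, 19.0% of the list against 17.9% of all loci. With BL 6 were lower in *iaa3* and 0 higher, *CSLC4*, *CSLC5*, *CSLC8*, *XXT3*, *AXY4* and *BGAL10*, by 1.69-fold (*CSLC4*) to 3.24-fold (*BGAL10*). The lower calls were 28.6% of the list, against 13.8% of all loci called lower, and 11.2% of all loci were called higher. Over both directions 25.0% of all loci were called, so the total called on the list was near that of all loci. The interaction was called for 8 of 21 (38.1%, against 17.6% of all loci). The response in *iaa3* minus that in wild type was negative for 7 of them and positive for *XYL1*, an alpha-xylosidase. In wild type *XYL1* changed by −0.58 ± 0.06, just under the limit.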

How the data were processed

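The 8 RNA-Seq libraries were total RNA of whole etiolated seedlings, 2 for each genotype and treatment, built with TruSeq kits and grouped by their labels. The deposited file holds, for each locus, the whole-number count of reads in each of the 8 libraries, which the authors did not normalize, and has 0 rows that name no gene. The submitters' processing notes name CASAVA (version 1), TopHat, HTSeq and TAIR9, without roles. The use of strand and the handling of reads that fit several loci are not given in the sources used here.

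Counts were fitted in R 4.3.3 with edgeR 4.0.16 (filterByExpr by group, TMM factors of 0.948 to 1.08, quasi-likelihood), with 1 coefficient per group over all libraries and loci. The limits of 1.5-fold and 0.01 follow the study, whose text, as read here, does not tie them to this test or to unadjusted p-values. The SE was derived from the F statistic. Alternatives were RLE factors, library size alone, DESeq2 1.42.0, other filters and limits, only the groups compared, a replicate block and each library left out. Libraries of a group differed by more than sampling noise (chi-square per degree of freedom of 3.93 to 12.1).

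Exon lengths, gene order and sequences were looked up by locus in RefSeq TAIR10.1 for all 33 members (Python 3.11.15, Biopython 1.88). As that build is not the one named in the notes, no coordinates are printed. The edgeR fit was tested on counts simulated from its own fitted means and spread, for BL in wild type and the interaction only. The other steps were not tested in this way. The members and lists were chosen with earlier results of these data known. Values per library are given for every member called in any comparison, and the others by range.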

Additional observations from a re-analysis of the deposited data

Results flagged for a closer look

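The response to BL differed between the genotypes in 19 of the 29 tested members, by an interaction term in edgeR with an adjusted p-value under 0.05 (17.6% of all loci passed it). Values are the log2 response in *iaa3* minus that in wild type, and no cause was tested. Negative values were −3.57 for *XTH17*, −2.05 for *XTH4*, −1.72 for *XTH22*, −1.41 for *XTH18*, −1.22 for *XTH30*, −1.02 for *XTH31*, −0.98 for *XTH8*, −0.92 for *XTH19*, −0.91 for *XTH33*, −0.83 for *XTH11*, −0.79 for *XTH23*, −0.54 for *XTH16* and −0.35 for *XTH27*. Positive values were 1.70 for *XTH7*, 1.55 for *XTH32*, 1.29 for *XTH9*, 1.29 for *XTH20*, 1.26 for *XTH15* and 0.71 for *XTH24*. These members all fell with BL in wild type, and in *iaa3* the fall was smaller or absent. The sign does not give the strength of a response, as *XTH11* changed by −0.10 in wild type and −0.94 in *iaa3*. *XTH17* was called in opposite directions in the 2 genotypes.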

How the results depend on the processing

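Of 1268 repeats of 77 member results (18 settings), 1213 kept their direction and side of the limit, 55 kept the direction but missed the limit, and 0 reversed. These 55 fell on 26 of the 77. Total counts of called *XTH* members, both directions together, stayed within 1.5 times their value under all settings except a 2-fold limit, with 3 in place of 8 for BL in *iaa3* and 9 in place of 16 for genotype in mock. Over all loci that limit gave 775 calls in place of 1664 and 1906 in place of 3664. Counts in 1 direction moved more: higher calls for BL in *iaa3* went from 3 to 6 without *iaa3* mock replicate 2 and to 5 without *iaa3* BL replicate 1, and lower calls for genotype in mock from 6 to 3 with DESeq2 or without *iaa3* mock replicate 1. On the xyloglucan list a 2-fold limit left 4 of 8 for BL in wild type, 0 of 1 for BL in *iaa3* and 1 of 4 for genotype in mock. With single libraries left out the list had 1 to 2 calls for BL in *iaa3*, 2 without *iaa3* mock replicate 1. With the replicate block, *XTH* counts were 18, 8, 16 and 16 as before and 20 for the interaction. Deviations of same-numbered libraries correlated at 0.46 between the mock groups (across loci) and at −0.069 to 0.13 between other groups. The numbers were therefore not taken as pairs over all groups. A pairing of the mock libraries alone was not tested, since the block fits 1 replicate effect over all groups. Scaling by library size alone moved the median of all loci from −0.01 to −0.11 in the wild type BL comparison and from −0.01 to −0.13 in that of genotype in mock. The share of higher calls among all loci then went from 59.0 to 45.4% and from 47.2 to 34.1%, and for the interaction from 43.4 to 56.2%, while *XTH* calls were 11 higher and 8 lower, 9 and 6, and 6 and 13. Members with few counts (*XTH10*, *XTH12*, *XTH13*, *XTH20*, *XTH21*, *XTH25* and *XTH26*) could not show small changes.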
